A study of Rattus norvegicus with 32 samples.

Results

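A set of 9 genes of antigen presentation and of the immunoproteasome were followed in rat liver after inhalation of ozone: B2m, Tap1, Tap2, Tapbp, Psmb8, Psmb9, Psmb10, Cd74 and RT1-Da. They were chosen by symbol in the platform annotation, among probe sets assigned to 1 gene, and the brightest probe set stood for its gene. All 9 had such a probe set, out of 13437 genes with one, and all 9 were among the 11625 genes bright enough to be tested. The set was chosen with earlier results of these data known. Male Wistar Kyoto (WKY) rats, 10 weeks old and 250 to 300 g, breathed filtered air or ozone at 1 ppm for 6 h per day. Total liver RNA was hybridised to 32 arrays in 6 groups, each harvest time with its own air group. The day 1 groups (1day0hrs-Air and 1day0hrs-Ozone, 6 arrays each) were harvested when a single exposure ended. The day 2 groups (2day0hrs-Air and 2day0hrs-Ozone, 5 arrays each) were harvested when the exposure of the second day ended. The 18 h groups (2day18hrs-Air and 2day18hrs-Ozone, 5 arrays each) were harvested 18 h after that. Whether every array came from its own animal is not stated in the labels. The p-values therefore measure the spread between these samples, which may be technical, and the number of arrays limits the precision.

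As background, cells display fragments of their own proteins on MHC class I molecules. The proteasome cuts proteins into peptides, the TAP transporter carries the peptides into the endoplasmic reticulum, and tapasin holds the waiting class I molecule beside it. Interferons replace the 3 catalytic subunits of the standard proteasome with the immunoproteasome subunits, and raise most genes of the class I pathway with them. MHC class II molecules display peptides from ingested material and are made mainly by professional antigen presenting cells, such as the macrophages and dendritic cells of the liver. In the rat the MHC is called RT1.

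Of the 9 genes, 6 lie close together in the RT1 region on chromosome 20 of the RefSeq assembly GRCr8. RT1-Da, which encodes a class II alpha chain, lies at 4515393-4520387. Tap2 (4638257-4652296), Psmb8 (4654068-4657049), Tap1 (4658171-4668543) and Psmb9 (4668952-4674421) follow in this order, and Tapbp, which encodes tapasin, lies at 4958821-4967958. Tap1 and Psmb9 point away from each other, with 408 bases between the 2 genes. B2m, which encodes the light chain of class I molecules, lies on chromosome 3 (129549236-129555354), Psmb10 on chromosome 19 (50740808-50743292) and Cd74 on chromosome 18 (56527071-56536406). Cd74 encodes the invariant chain, which blocks and guides class II molecules before they are loaded.

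The promoters of B2m, Tap1 and Psmb8 are shown because these 3 genes passed the test in at least 1 comparison below. The sequences are RefSeq's for GRCr8 and run 5′ to 3′ on the strand of the gene, from 250 bases before the start site to 10 bases after it. Capitals mark matches to the interferon-stimulated response element (ISRE, searched as GAAANNGAAA), to the gamma-activated site (GAS, searched as TTCNNNGAA) and to the NF-kB motif, on either strand. B2m is at chr3:129549080-129549339 (plus strand), Tap1 at chr20:4668534-4668793 (minus strand) and Psmb8 at chr20:4657022-4657281 (minus strand).
B2m: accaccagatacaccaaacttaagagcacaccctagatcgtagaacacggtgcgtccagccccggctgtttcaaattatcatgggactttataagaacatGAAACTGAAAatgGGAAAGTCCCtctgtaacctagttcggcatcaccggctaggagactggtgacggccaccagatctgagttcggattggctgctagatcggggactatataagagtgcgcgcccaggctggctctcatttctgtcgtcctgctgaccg
Tap1: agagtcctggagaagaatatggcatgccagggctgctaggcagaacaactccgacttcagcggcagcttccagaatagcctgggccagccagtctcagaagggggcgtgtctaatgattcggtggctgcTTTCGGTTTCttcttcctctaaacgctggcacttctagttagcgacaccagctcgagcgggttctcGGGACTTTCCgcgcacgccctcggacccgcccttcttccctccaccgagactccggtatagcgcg
Psmb8: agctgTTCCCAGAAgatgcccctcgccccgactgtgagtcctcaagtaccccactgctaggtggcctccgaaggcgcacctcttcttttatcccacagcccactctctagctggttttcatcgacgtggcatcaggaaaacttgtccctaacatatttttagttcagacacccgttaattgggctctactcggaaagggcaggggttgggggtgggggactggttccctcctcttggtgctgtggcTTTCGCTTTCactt
The B2m match to the ISRE began 150 bases before the start site and was followed by an NF-kB match. In Tap1 the ISRE match began 121 bases before the start site, in the interval that Tap1 shares with Psmb9, and an NF-kB match began 55 bases before it. In Psmb8 the ISRE match began 4 bases before the start site, and a GAS match began 245 bases before it. Promoters of 300 bases, from 250 before to 50 after the start site, were found for 9 of the 9 genes. An ISRE match was present in 6 of them (B2m, Tap1, Tap2, Tapbp, Psmb8 and Psmb10), against 3.92% of 33469 promoters in the RefSeq table. An NF-kB match was present in 4 (B2m, Tap1, Tapbp and Cd74), against 7.51%, and a GAS match in 1 (Psmb8), against 8.87%. The CCAAT box (CCAAT) was present in 5, against 37.5%, and the core of the cyclic AMP response element (TGACG) in 2, against 21.2%. No motif was allowed to hide another, so matches may overlap. A match is a description of the letters and not a binding site.

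The arrays were alike in brightness, with medians between 147 and 161 units, and their probe-set values correlated between 0.961 and 0.997. Alb, the defining hepatocyte gene, read 12830 to 13346 units on every array. Probes for nonspecific binding read between 54.3 and 92.0 units (array medians), so fold changes of dim genes such as Tap2 may be understated, by an amount that was not measured. Over all tested genes, 7 of 32 arrays lay nearer to the mean of another group than to the mean of the rest of their own. Day 2 air replicate 5 correlated at -0.52 with its own group and at 0.60 with day 2 ozone. Day 2 ozone replicate 5 correlated at -0.25 with its own group and at 0.66 with 18 h ozone. In the 18 h air group, replicate 1 lay nearest to 18 h ozone and replicate 5 nearest to day 1 air. Day 2 air replicate 5 was the lowest of its group for 9 of the 9 genes, and 18 h air replicate 5 was the highest of its group for 6. The differences of the 9 genes on day 2 and at 18 h are given with these 4 arrays and, as single values or ranges, without each of them.

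The mean level was lower after ozone than after air for every one of the 9 genes at each of the 3 harvest times, 27 of 27 differences. Without 18 h air replicate 5 it was 26 of 27, the exception being Psmb10 at 18 h. Of all tested genes, 48.3% were below 0 on day 1, 49.6% on day 2 and 39.4% at 18 h. A difference below 0 at all 3 times was found for 13.7% of the 11625 genes. The 9 genes vary together from array to array, so the 27 differences are not separate observations. The set was also chosen with earlier results of these data known, so its counts beside the shares of all genes are a description. All differences are means of log2(intensity + 16), ozone minus air, with the standard error of limma. The median difference of the 9 genes was -0.161 on day 1, -0.20 on day 2 and -0.18 at 18 h, where the median of all genes was 0.0045, 0.00043 and 0.015. A gene passed the test when limma's p, adjusted over 11625 genes by the Benjamini-Hochberg method, was under 0.05. On day 1, 2 of 9 genes fell (B2m and Tap1), where 16.4% of all genes fell and 29.5% passed in either direction, so this share is near the background. On day 2, 0 of 9 passed in limma, where 0.705% of all genes passed and 0.241% fell, and 3 of 9 had an unadjusted p under 0.05. At 18 h, 2 of 9 fell (Tap1 and Psmb8), where 0.31% of all genes fell and 1.17% passed in either direction. None of the 9 rose at any time, where 13.1% of all genes rose on day 1, 0.465% on day 2 and 0.86% at 18 h. Every ozone array lay below every air array for 0 of 9 genes on day 1 (8.76% of all genes), 0 of 9 on day 2 (0.43%) and 1 of 9 at 18 h (0.869%). The unadjusted p was under 0.05 for 5 of the 9 on day 1 and for 4 at 18 h. In bulk tissue, fewer cells of a type and less RNA per cell cannot be told apart.

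**Figure D1:**
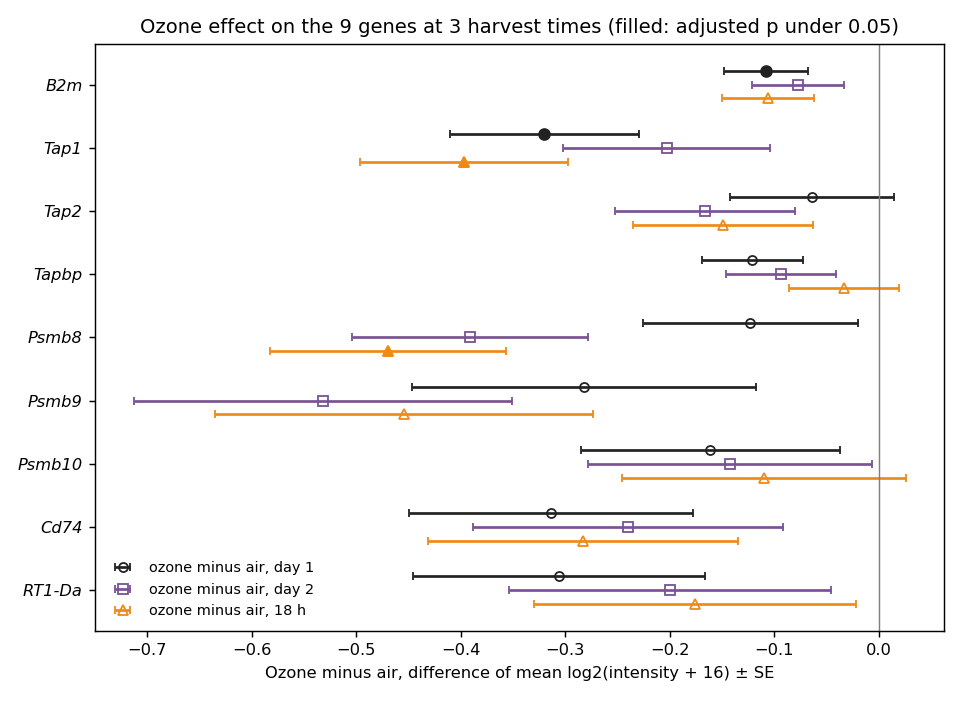
Ozone minus air difference of mean log2(intensity + 16), with its standard error, for the 9 genes at the 3 harvest times; filled symbols passed the test. All 27 symbols lie left of 0, with Psmb9 on day 2 at -0.53 farthest from it and Tapbp at 18 h at -0.03 nearest.

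**Figure D2:**
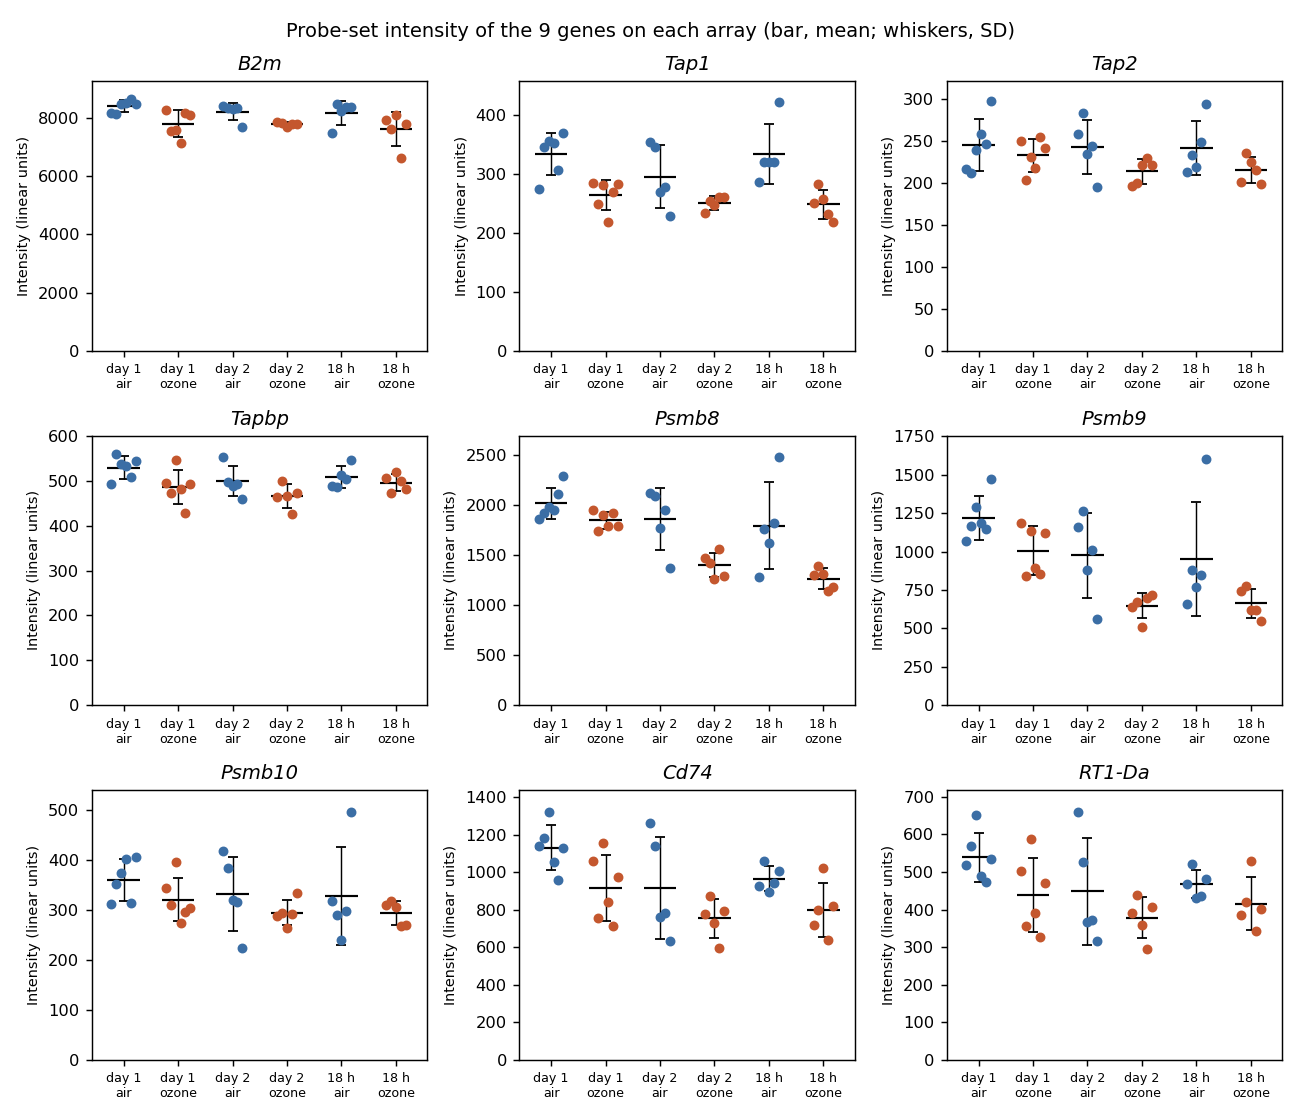
Probe-set intensity (linear units, axes from 0) of the 9 genes on each of the 32 arrays, by group, with the group mean and SD. Air and ozone arrays overlap in every panel at every time except for Tap1 at 18 h, where the ozone arrays read at most 284 and the air arrays at least 287.

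Tap1, which pairs with Tap2 to form the peptide transporter, fell on day 1 and at 18 h. On day 1 the 6 air arrays read from 275 to 369 units, with a median of 350. The 6 ozone arrays of that day read from 219 to 285, with a median of 276. The groups overlapped by a single air array, replicate 1, and all 6 ozone arrays lay below the air mean. The difference was -0.32 ± 0.09 (SE, n = 6 and 6), a level 1.25-fold lower, with an adjusted p of 0.0071 (limma). The call held when each of the 12 arrays was left out in turn, with adjusted p between 0.0024 and 0.027.

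On day 2 the air arrays read 355, 346, 269, 278 and 229 units for Tap1. The ozone arrays read 233, 254, 248, 262 and 262. The air arrays spread over a wider range than the ozone arrays, and 1 of them, replicate 5, was below all 5 ozone arrays. The difference of -0.20 ± 0.10 (n = 5 and 5) did not pass (adjusted p = 0.38, limma).

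At 18 h the air arrays read 287, 321, 320, 322 and 422 units, and the ozone arrays 250, 284, 259, 232 and 219. Every ozone array was below every air array. The difference was -0.40 ± 0.10 (n = 5 and 5), 1.32-fold lower, with an adjusted p of 0.04 (limma). The nearest arrays of the 2 groups were ozone replicate 2 and air replicate 1. The call was lost when any of 8 of the 10 arrays was left out (air replicates 2 to 5 and ozone replicates 1, 3, 4 and 5), with adjusted p up to 0.13, and the difference without air replicate 5 was -0.31. Groups that do not overlap with all 10 arrays cannot overlap with 1 left out, so the separation was not tested in this way.

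Tap2, its partner in the transporter, was dim, and none of its differences passed. Its arrays read between 195 and 298 units over the 6 groups. The differences were -0.06 ± 0.08 on day 1, -0.17 ± 0.09 on day 2 and -0.15 ± 0.09 at 18 h, with adjusted p of 0.59, 0.43 and 0.53 (limma). The 95% intervals ran from -0.22 to 0.10 on day 1, from -0.34 to 0.01 on day 2 and from -0.32 to 0.03 at 18 h. With array weights the day 2 difference of Tap2 was -0.20 and passed (adjusted p = 0.041), and without 18 h air replicate 5 the 18 h difference was -0.08. The day 1 difference ranged from -0.0086 without air replicate 6 to -0.10 without air replicate 2, and it was -0.10 without air replicate 1 and -0.03 without ozone replicate 2. All 5 ozone arrays lay below the air mean of Tap2 on day 2, and the same was true at 18 h, although the groups overlapped both times.

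Tapbp differed by little from its air level at any time. The air arrays read between 460 and 560 units and the ozone arrays between 427 and 547. The difference was -0.12 ± 0.05 on day 1 (adjusted p = 0.058, limma), -0.09 ± 0.05 on day 2 (adjusted p = 0.49) and -0.03 ± 0.05 at 18 h (adjusted p = 0.89). On day 1, 5 of 6 ozone arrays lay below the air mean, and replicate 3, at 547 units, did not. Without that array Tapbp passed on day 1 (adjusted p = 0.014), and without day 1 air replicate 1 it passed at 0.033. The day 2 difference of Tapbp was -0.06 without air replicate 1, and the 18 h difference was -0.0069 without air replicate 5 and -0.02 without ozone replicate 2.

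B2m was bright, with little spread, and its decrease after ozone was small. On day 1 the air arrays read from 8135 to 8638 units, with a median of 8482, and the ozone arrays from 7135 to 8283, with a median of 7841. All 6 ozone arrays lay below the air mean, yet the groups overlapped. B2m fell by 0.108 ± 0.040 on the log2 scale (adjusted p = 0.042, limma), a level 1.08-fold lower. This call was lost without day 1 air replicate 3, 4, 5 or 6 or day 1 ozone replicate 2, 3 or 4, with adjusted p up to 0.13, and after quantile normalization the difference was -0.04 (adjusted p = 0.26).

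On day 2 the B2m air arrays read 8417, 8348, 8291, 8335 and 7681 units and the ozone arrays 7851, 7820, 7668, 7791 and 7782. In this comparison 4 of the 5 air arrays were above all 5 ozone arrays, and replicate 5 was below 4 of them. At 18 h the air arrays read 7463, 8462, 8228, 8357 and 8377 units and the ozone arrays 7940, 7619, 8092, 6621 and 7775. Air replicate 1 was the exception there, below 4 of the 5 ozone arrays. The differences were -0.08 ± 0.04 on day 2 (adjusted p = 0.50, limma) and -0.11 ± 0.04 at 18 h (adjusted p = 0.29). Without 18 h ozone replicate 4, which read 6621, the latter was -0.06. A dimmer, second probe set of B2m differed by -0.15 on day 1, -0.16 on day 2 and -0.35 at 18 h, with overlapping groups each time.

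Psmb8 encodes the immunoproteasome subunit that takes the place of the standard subunit made from Psmb5. Among the 9 genes it had the largest difference at 18 h, the time at which it passed. On day 1 the air arrays read from 1864 to 2291 units, with a median of 1967, and the ozone arrays from 1741 to 1954, with a median of 1847. The difference of -0.12 ± 0.10 did not pass (adjusted p = 0.40, limma).

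On day 2 the air arrays of Psmb8 read 2117, 2091, 1768, 1955 and 1371 units. The ozone arrays read 1473, 1419, 1264, 1561 and 1296. In this comparison 4 of the 5 air arrays were above all 5 ozone arrays, and air replicate 5 lay among the ozone values. The difference was -0.39 ± 0.11 (n = 5 and 5), 1.31-fold lower, with an adjusted p of 0.078 (limma). Without day 2 air replicate 5 the difference was -0.50 and passed, with an adjusted p of 0.0032.

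At 18 h the air arrays read 1283, 1761, 1626, 1824 and 2477 units and the ozone arrays 1300, 1394, 1315, 1139 and 1180. In this comparison 4 of the 5 air arrays were above all 5 ozone arrays, and air replicate 1 lay among the ozone values. Psmb8 fell by 0.47 ± 0.11 on the log2 scale (n = 5 and 5), 1.38-fold lower, with an adjusted p of 0.032 (limma). The call was lost without air replicate 2, 3, 4 or 5 or ozone replicate 3, 4 or 5, with adjusted p up to 0.10, and without air replicate 5 the difference was -0.35.

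Psmb9 takes the place of Psmb6, which was not analysed here, and it had the largest ozone difference among the 9 genes on day 2. On day 1 the air arrays read from 1066 to 1473 units, with a median of 1176, and the ozone arrays from 840 to 1188, with a median of 1008. On day 2 the air arrays read 1163, 1264, 879, 1011 and 559 units, and the ozone arrays 640, 674, 512, 701 and 719. Day 2 air replicate 5 was again the exception, below 4 of the 5 ozone arrays.

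At 18 h the air arrays of Psmb9 read 660, 881, 767, 850 and 1602 units. The ozone arrays read 744, 779, 623, 621 and 548. Air replicate 5 read higher than every day 1 array, and air replicates 1 and 3 lay among the ozone arrays. The differences were -0.28 ± 0.17 on day 1, -0.53 ± 0.18 on day 2 and -0.45 ± 0.18 at 18 h, and none passed in limma (adjusted p = 0.22, 0.14 and 0.26). Without day 2 air replicate 5 the day 2 difference of Psmb9 was -0.72 and passed, with an adjusted p of 0.006. Without 18 h air replicate 5 the 18 h difference was -0.25 (adjusted p = 0.65).

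Psmb10, which takes the place of Psmb7, read between 224 and 497 units, with its highest and its lowest value both in air groups. The differences were -0.16 ± 0.12 on day 1, -0.14 ± 0.14 on day 2 and -0.11 ± 0.14 at 18 h (adjusted p = 0.36, 0.80 and 0.85, limma). Its lowest array was day 2 air replicate 5 and its highest 18 h air replicate 5. Without the former the day 2 difference of Psmb10 was -0.27 (adjusted p = 0.23), and it was -0.06 without day 2 air replicate 1 and -0.08 without day 2 air replicate 2. The 18 h difference was 0.04 without 18 h air replicate 5 (adjusted p = 0.97), and without 18 h air replicate 3 it was -0.21.

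The differences of the standard subunits were near 0. Psmb5 differed by 0.06 ± 0.04 on day 1, 0.04 ± 0.04 on day 2 and 0.07 ± 0.04 at 18 h (adjusted p = 0.30, 0.86 and 0.62, limma). Psmb7 differed by -0.04 ± 0.05, 0.06 ± 0.05 and -0.03 ± 0.05 at the same times. Within each array, the log2 level of Psmb8 minus that of Psmb5 can be followed between groups, although the levels of 2 probe sets cannot be set against each other. On day 1 this quantity had a median of 0.23 in air (range 0.13 to 0.43) and of 0.11 in ozone (-0.06 to 0.14). On day 2 it was 0.27 in air (-0.25 to 0.33) and -0.23 in ozone (-0.40 to -0.18). At 18 h it was 0.04 in air (-0.38 to 0.43) and -0.51 in ozone (-0.68 to -0.35). The ozone arrays thus held the lower values at each time, with an overlap on every occasion, and no test was run on the quantity. For Psmb10 minus Psmb7 the medians were -0.54 in air and -0.75 in ozone on day 1, -0.53 and -0.83 on day 2, and -0.80 and -0.70 at 18 h.

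**Figure D3:**
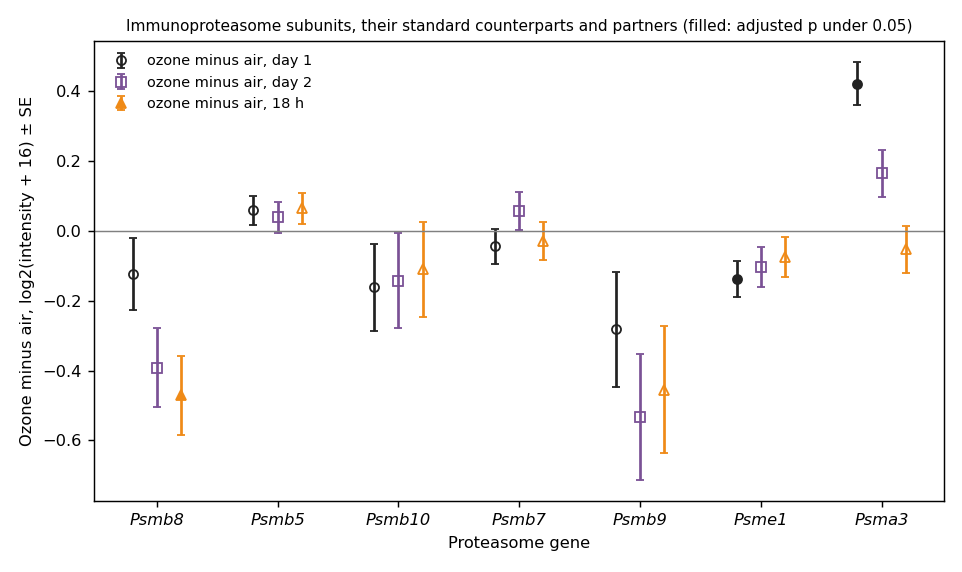
Ozone minus air difference of log2(intensity + 16), with its standard error, for the 3 immunoproteasome subunits, for the standard subunits Psmb5 and Psmb7, for the activator subunit Psme1 and for Psma3; filled symbols passed the test. Psmb8 and Psmb9 lie lowest on day 2 and at 18 h, Psmb5 and Psmb7 stay within 0.07 of 0, and Psma3 lies at 0.42 on day 1.

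Of 11 other proteasome genes tested (14 listed), 2 rose and 1 fell on day 1, and 0 passed on day 2 or at 18 h in limma. On day 1, 13.1% of all genes rose, 16.4% fell and 29.5% passed in either direction, so these counts are near the background. Psma3, an alpha subunit of the core, rose by 0.42 ± 0.06 on day 1 (adjusted p = 5.4e-06), and Psmc1, an ATPase subunit of the cap, rose by 0.17 ± 0.05 (adjusted p = 0.01). Psme1, a subunit of the interferon-induced activator, differed by -0.14 ± 0.05 on day 1 (adjusted p = 0.046). That call was lost without any of 10 of the 12 day 1 arrays (all but air replicate 4 and ozone replicate 3), with adjusted p up to 0.11, and with its probe sets averaged the difference was -0.01 (adjusted p = 0.81).

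The class II genes Cd74 and RT1-Da were lower on average after ozone, but no difference passed. On day 1 the Cd74 air arrays read from 962 to 1322 units, with a median of 1136, and the ozone arrays from 712 to 1157, with a median of 908. On day 2 the air arrays read 1262, 1143, 763, 784 and 633 units, and the ozone arrays 780, 874, 730, 594 and 793. The air group of day 2 fell into 2 high arrays, replicates 1 and 2, and 3 arrays at the ozone level.

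At 18 h the Cd74 air arrays read 929, 1060, 895, 944 and 1005 units and the ozone arrays 718, 799, 1024, 638 and 822. In this comparison 4 of the 5 ozone arrays were below every air array, and ozone replicate 3 was not. The differences of Cd74 were -0.31 ± 0.14 on day 1, -0.24 ± 0.15 on day 2 and -0.28 ± 0.15 at 18 h (adjusted p = 0.081, 0.56 and 0.46, limma). Without day 1 ozone replicate 3 the day 1 difference was -0.38 and passed, with an adjusted p of 0.038. The day 2 difference of Cd74 was -0.36 without air replicate 5, -0.12 without air replicate 1, -0.15 without air replicate 2 and -0.16 without ozone replicate 4, and passed in none of these.

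RT1-Da read from 473 to 653 units in air and from 326 to 588 in ozone on day 1. Its air arrays on day 2 read 660, 528, 366, 372 and 317 units, in the same order of arrays as for Cd74. The differences were -0.31 ± 0.14 on day 1, -0.20 ± 0.15 on day 2 and -0.18 ± 0.15 at 18 h (adjusted p = 0.10, 0.69 and 0.73, limma). Without day 1 ozone replicate 3, which read 588, the day 1 difference of RT1-Da was -0.39 and passed, with an adjusted p of 0.035. Its day 2 difference was -0.31 without air replicate 5, -0.05 without air replicate 1, -0.13 without air replicate 2 and -0.12 without ozone replicate 4. At 18 h it was -0.27 without ozone replicate 3 and -0.11 without ozone replicate 4.

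Across the 6 groups, the highest mean was that of day 1 air for 9 of the 9 genes. The lowest mean was that of day 2 ozone for 6 genes and that of 18 h ozone for 3. All 3 air means lay above all 3 ozone means for 6 of the 9 genes, the exceptions being Psmb8, Psmb9 and Cd74. For Psmb10, RT1-Da and Tapbp the gap between the lowest air mean and the highest ozone mean was 0.00076, 0.0063 and 0.0071. The larger SDs of the groups on either side were 0.373, 0.421 and 0.092. The shares of all genes with such orders of the means were not counted. In the order of the levels, neighbouring groups were further apart than the larger of their SDs in 5 of 45 pairs, 2 of them for Psmb8 and 1 each for Psmb9, Cd74 and RT1-Da. The arrays of neighbouring groups overlapped in every one of the 45 pairs.

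The air groups were themselves compared. From day 1 to day 2 in air, 0 of 9 genes passed in limma (0.0086% of all genes did), 9 of 9 differences were below 0 (44.9% of all genes) and 2 had an unadjusted p under 0.05. The largest was that of Psmb9, at -0.37 ± 0.17 (adjusted p = 0.74). In the same comparison 11 of 12 Kupffer cell and macrophage markers were below 0 (median -0.28), as were 16 of 16 interferon-induced GTPase and antiviral genes (median -0.25), and 0 of either list passed. Their part in the differences of the 9 genes was not tested. From day 2 to 18 h in air, 0 of 9 passed (0.12% of all genes did), 5 of 9 differences were below 0 (53.1% of all genes) and 0 had an unadjusted p under 0.05.

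The size of the ozone difference was compared between harvest times. Between day 2 and day 1, 0 of 9 genes passed in limma (5.09% of all genes did), and between 18 h and day 2 it was 0 of 9 (0.0086%). In both, 0 of the 9 had an unadjusted p under 0.05. Between 18 h and day 1, 0 of 9 passed (20.4% of all genes did), and 1 had an unadjusted p under 0.05. That gene was Psmb8, whose ozone difference at 18 h exceeded that of day 1 by -0.35 ± 0.15 (95% interval -0.66 to -0.04, adjusted p = 0.11). Without 18 h air replicate 1 the Psmb8 difference between these times was -0.46 and passed, with an adjusted p of 0.016. It was -0.22 without 18 h air replicate 5 (adjusted p = 0.28).

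Without day 2 air replicate 5 alone, the remaining day 2 differences were -0.10 for B2m, -0.29 for Tap1 (adjusted p = 0.063), -0.24 for Tap2 and -0.12 for Tapbp. Without day 2 ozone replicate 5 alone, the 9 differences ran from -0.57 (Psmb9) to -0.08 (B2m) and none passed. Without 18 h air replicate 1 alone, Tap1 (-0.45) and Psmb8 (-0.58) passed at 18 h, and the others ran from -0.57 (Psmb9) to -0.05 (Tapbp). Without 18 h air replicate 5 alone, none passed at 18 h, and the differences not given above were -0.10 for B2m, -0.27 for Cd74 and -0.17 for RT1-Da.

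The counts were repeated without 3 or 4 of the 7 arrays that lay nearer to another group, a choice made after the data were seen. Day 1 air replicate 5 and day 2 air replicates 1 and 2 also lay nearer to another group and were kept. Of these, day 2 air replicate 1 correlated at -0.02 with its own group and at 0.66 with day 1 air. The day 2 air group thus lost the array that was lowest for 9 of the 9 genes and kept the array that was highest for 7. Taking out arrays because they lie away from their own group tends by itself to widen the distance between groups. Without day 2 air replicate 5, day 2 ozone replicate 5 and 18 h air replicate 5, 4 of 9 genes fell on day 1 (B2m, Tap1, Tapbp and Psmb9), where 18% of all genes fell. On day 2, 5 of 9 fell (Tap1, Tap2, Psmb8, Psmb9 and Psmb10), where 6.87% of all genes fell. At 18 h, 1 of 9 fell (Psmb8), where 0.533% of all genes fell. With 18 h air replicate 1 left out as well, the counts were 4, 5 and 2, the last being Tap1 and Psmb8. Of all genes, 18.2% then fell on day 1, 7.09% on day 2 and 1.24% at 18 h. Without the 2 arrays of low nonspecific signal, day 1 air replicate 2 and day 1 ozone replicate 3, Tap1 and Tapbp fell on day 1, 0 of 9 passed on day 2, and Tap1 and Psmb8 fell at 18 h. In that setting 13.8% of all genes fell on day 1, 0.0517% on day 2 and 0.293% at 18 h.

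The 9 genes also varied together within groups. Deviations of each array from its group mean were correlated over 32 arrays for the 36 pairs, with p from 100000 permutations of the arrays within groups. After Benjamini-Hochberg adjustment, 26 of 36 Pearson correlations passed, with a median r of 0.56 and a range from 0.10 (B2m and Tapbp) to 0.98 (Cd74 and RT1-Da). For Cd74 and RT1-Da, Spearman's rho was also 0.98, and both permutation p-values were 1e-05, the smallest that these permutations can give (adjusted 0.00012 for r). Leaving out the 2 arrays farthest from the median left r at 0.98. Among the 3 immunoproteasome subunits r lay between 0.69 and 0.87. Tap1 and Psmb9, the neighbours, had r = 0.85 and rho = 0.82 (permutation p = 1e-05 for each, adjusted 0.00012 and 0.00018), and r was 0.78 without the 2 farthest arrays. Psmb10, on another chromosome, had r = 0.85 with Psmb9 and 0.82 with Tap1, and the nearby Tap1 and Psmb8 had r = 0.76. A part of nearness on the chromosome was not tested. Between the class I loading genes and the class II pair, r lay between 0.24 and 0.74, and 4 of 8 passed. Arrays that were high or low for 1 gene were thus high or low for many of the others, including the arrays named above that lay away from their group. Those arrays lay away over all tested genes, and pairs of genes outside the 9 were not correlated in this way. Whether the shared variation is particular to the 9 genes was therefore not tested.

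**Figure D4:**
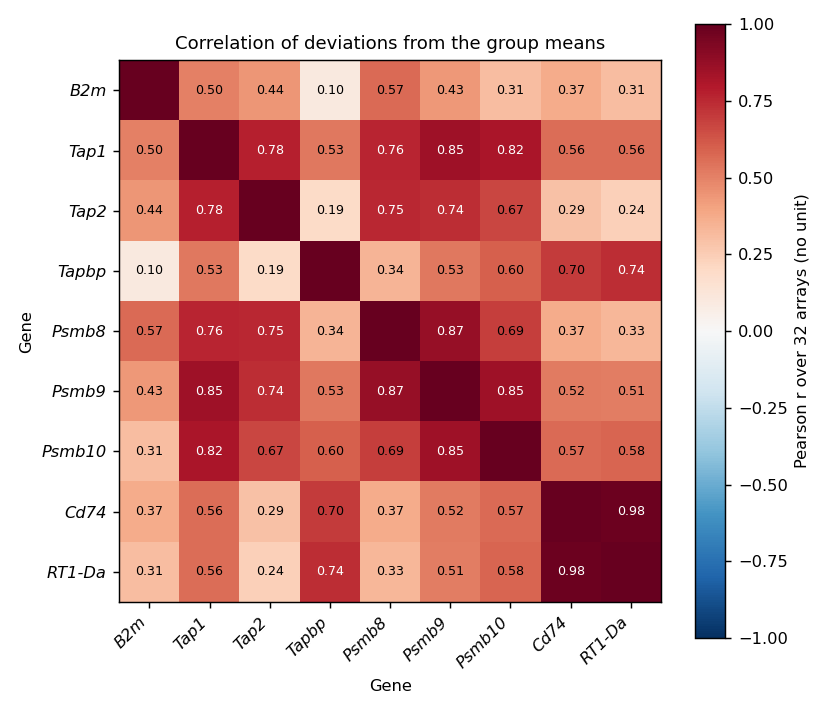
Pearson r between the 9 genes over 32 arrays, computed on deviations from the group means, as a colour from blue (-1) to red (1) with the value printed. Cd74 and RT1-Da form 1 block (0.98), and Tap1, Psmb8, Psmb9 and Psmb10 another (0.69 to 0.87).

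Outside the 9, the genes most like them were named by a fixed rule, Pearson r over the 32 arrays with the mean profile of each block, as a description without a p. For the 7 class I and immunoproteasome genes these were Sp110 (r = 0.93), Isg15 (0.926), RT1-S3 (0.915), Lgals3bp (0.911) and Dhx58 (0.908). Isg15 and Dhx58 are known as interferon-induced genes, and RT1-S3 is a class I heavy chain gene. For Cd74 and RT1-Da they were the class II genes RT1-Db1 (r = 0.973) and RT1-Ba (0.969), then Anxa3 (0.946), Fcer1g (0.943) and Aif1 (0.938). Fcer1g and Aif1 are known as genes of macrophages and other myeloid cells.

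Other genes of the pathway were read from lists written for the purpose, with earlier results of these data known. Their counts stand beside the 16.4% of all genes that fell on day 1, 0.241% on day 2 and 0.31% at 18 h. Of 9 class I heavy chain genes tested (29 listed; the others were too dim or were not analysed here), 2 fell on day 1, 0 passed on day 2 and 2 fell at 18 h. RT1-N2 fell on day 1 by 0.64 ± 0.13 on the log2 scale (adjusted p = 0.00039, limma), with every ozone array below every air array. RT1-T24-3 fell on day 1 by 0.50 ± 0.12 (adjusted p = 0.0011) and at 18 h by 0.49 ± 0.13 (adjusted p = 0.046), the latter call being lost without any of 9 of the 10 arrays (all but air replicate 1; adjusted p up to 0.15). RT1-S3 differed by -0.41 ± 0.18 on day 1, -0.78 ± 0.20 on day 2 and -0.89 ± 0.20 at 18 h, and passed at 18 h (adjusted p = 0.093, 0.058 and 0.023). Its 18 h call was lost without air replicate 3, 4 or 5 or ozone replicate 4 or 5 (adjusted p up to 0.086). Genes of this family are near-identical in places, so their probe sets may share signal.

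Of 8 peptide trimming and loading partners (9 listed), 3 fell on day 1 and 0 passed later. Npepps (-0.20 ± 0.04, adjusted p = 9.5e-05, limma), Erap1 (-0.26 ± 0.06, adjusted p = 0.001) and Ide (-0.11 ± 0.03, adjusted p = 0.0016) are peptidases, of which Erap1 trims peptides for class I in the endoplasmic reticulum. At 18 h the 8 partners had a median difference of 0.08, with 0 of 8 below 0. Of 11 other genes of class II and its loading (15 listed), 0 passed at any of the 3 times. Beside class II chains, the list holds genes of processing and regulation, such as Ctss, Ctsl, Ctsb, Ctsd, Lgmn, Ifi30 and Ciita. The median difference of the 11 was 0.02 on day 1, -0.02 on day 2 and -0.06 at 18 h, and is not that of the chains alone. On day 1, 5 of the 11 were below 0, and the differences ran from -0.34 to 0.19. RT1-Ba, named above for its likeness, was the lowest of the 11 on day 1, at -0.34 ± 0.13 (adjusted p = 0.052, limma). RT1-Db1, named there as well, differed by -0.25 ± 0.11 on day 1 (adjusted p = 0.087, limma). Ciita, the class II transactivator, differed by 0.02 ± 0.05 on day 1.

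Of 15 regulators tested (18 listed), 7 fell and 1 rose on day 1. The falls included Irf2 (-0.40 ± 0.08, adjusted p = 0.00019, limma), Ifngr2, a chain of the interferon gamma receptor (-0.25 ± 0.05, adjusted p = 0.00028), Jak1, a kinase of that receptor (-0.21 ± 0.04, adjusted p = 0.00047), and Rfx5, a factor of class II promoters (-0.21 ± 0.05, adjusted p = 0.0006). The regulator that rose on day 1 was Ifngr1, another chain of the interferon gamma receptor, so the genes of this receptor did not all fall. It is named here beside Ifngr2 after its values were seen. Its day 1 difference lay between 0.17 and 0.22 under the alternatives run. The call held with each array left out in turn, with adjusted p between 0.013 and 0.045 (limma). Irf1 differed by 0.03 ± 0.13 on day 1, -0.02 ± 0.14 on day 2 and -0.06 ± 0.14 at 18 h. Irf9, the DNA-binding part of the factor that recognises the ISRE, was the single regulator to pass at each time and is named here after its values were seen. It read 317, 306 and 326 units (medians of the air groups on day 1, day 2 and at 18 h) against 260, 204 and 247 after ozone. Its differences were -0.24 ± 0.08, -0.40 ± 0.09 and -0.44 ± 0.09 (adjusted p = 0.018, 0.041 and 0.0089, limma). The 18 h call held with each array left out, the day 2 call was lost without any of 7 of the 10 arrays (all but air replicate 5 and ozone replicates 2 and 5; adjusted p up to 0.19), and the day 1 call without air replicate 2 (0.053). The day 1 call of Nfkb1, at -0.11, was lost without air replicate 2 or 3 or ozone replicate 1, 2, 4 or 5 (adjusted p up to 0.12).

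Of 16 interferon-induced GTPase and antiviral genes (21 listed), 11 fell on day 1, 0 passed on day 2 and 6 fell at 18 h. Their median difference was -0.47 on day 1, -0.47 on day 2 and -0.49 at 18 h, about the level of Psmb8 and Psmb9 at the later times. On day 1 the 4 with the smallest p were Ifit2 (-0.53 ± 0.09), Irgm (-0.86 ± 0.16), Ifit3 (-0.32 ± 0.07) and Igtp (-1.08 ± 0.25). The day 1 calls of the 11 held with each array left out in turn, except that of Rsad2, which was lost without air replicate 3 (adjusted p = 0.054). The 18 h calls of Ifi27 and Oas1a held in the same way. Those of the other 4 were lost without single arrays, which were air replicates 2 to 5 and ozone replicates 2 to 5 for Mx2, air replicates 3 to 5 and ozone replicates 3 to 5 for Irf7, air replicates 2, 4 and 5 and ozone replicates 3 to 5 for Ifit3, and air replicates 3 to 5 and ozone replicates 3 and 4 for Usp18 (adjusted p up to 0.15). The 16 genes were below 0 on day 2 as well, 16 of 16, and 15 of 16 were at 18 h.

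Markers of the cell types in liver were read beside these results. Of 12 Kupffer cell and macrophage markers (15 listed), 2 fell on day 1, 1 on day 2 and 0 passed at 18 h. Of all genes, 16.4% fell on day 1, 0.241% on day 2 and 0.31% at 18 h, so the day 1 count is near the background. The median difference of the 12 markers was -0.16, -0.11 and -0.22. Lyz2 fell on day 1 by 0.63 ± 0.09 (adjusted p = 3.8e-06, limma) and on day 2 by 0.40 ± 0.10 (adjusted p = 0.046), and it differed by 0.01 ± 0.10 at 18 h. The day 2 call was lost without any of 8 of the 10 arrays (all but air replicate 5 and ozone replicate 5; adjusted p up to 0.21). Adgre1 fell on day 1 by 0.27 ± 0.10 (adjusted p = 0.049), a call lost without any of 10 of the 12 arrays (all but air replicate 5 and ozone replicate 1; adjusted p up to 0.13). Clec4f, a defining Kupffer cell gene, read 1332 to 1707 units in day 1 air and 1045 to 1857 in day 1 ozone, and was at 0 on no array. The summed level of the 12 markers ranged from 8178 to 9677 in air and from 6430 to 9994 in ozone on day 1. On day 2 it ranged from 6065 to 9854 in air and from 5617 to 7565 in ozone, and at 18 h from 7649 to 8728 and from 6255 to 7693. Their median difference was thus below 0 beside that of Cd74 and RT1-Da at each time, and their part in the results on the 9 genes was not tested.

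Counts were taken in the same way for other cell types. Of 8 hepatocyte markers, 1 (Asgr1) fell on day 1 and 0 passed later, with median differences of -0.03, 0.03 and 0.00. Of 4 dendritic cell markers and of 3 B cell markers, 0 passed at any time. Of 8 genes listed for T and NK cells, 2 (Prf1 and Ptprc) fell on day 1, and of 5 neutrophil and monocyte markers 1 rose (Mmp8) and 1 fell (Ly6c). Ptprc is made by white blood cells in general, so its fall is not particular to T and NK cells. Of 7 endothelial markers, 2 (Stab2 and Tek) fell on day 1 and 1 (Stab2) rose at 18 h, and of 7 stellate cell markers 1 (Lrat) fell on day 1. The day 1 calls of Asgr1, Prf1, Tek and Lrat held with each array left out in turn. That of Ptprc was lost without air replicate 4 or 6 or ozone replicate 2 or 5, that of Mmp8 without air replicate 2 or ozone replicate 2 or 4, that of Ly6c without air replicate 6, and that of Stab2 without air replicate 5 or ozone replicate 3 (adjusted p up to 0.13). The 18 h call of Stab2 was lost without any of 7 of the 10 arrays (all but air replicates 1 and 5 and ozone replicate 1; adjusted p up to 0.12). These counts stand beside 29.5% of all genes that passed on day 1, 0.705% on day 2 and 1.17% at 18 h. The RNA quality measure on the arrays, the ratio of 3′ to 5′ signal of the actin control, lay between 2.16 and 3.50.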

How the data were processed

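RNA from rat liver was hybridised to 32 Affymetrix HT-Rat-230 PM arrays of a single colour. The authors deposited 1 table of linear probe-set intensities, for which the submitters' processing notes name PLIER and Affymetrix Expression Console. Tool versions, background correction and scaling between arrays were not given in the sources used here. Groups came from the titles. Of 31139 probe sets, 97 controls, 11407 without a gene and 573 with several genes were left out. Probe sets below the 25th percentile of mean log2 were left out (an intensity of about 122), and the brightest stood for its gene. The deposited intensities were taken as log2(intensity + 16), with no further scaling, and fitted in R 4.3.3 with limma 3.58.1 (lmFit, eBayes with an intensity trend), with 6 group means and no block, in 8 contrasts. Two-sided p-values were adjusted over 11625 genes by Benjamini and Hochberg's method (threshold 0.05). Same-numbered arrays of air and ozone groups did not deviate together, so the numbers were not used as pairs. Named from each pathway list were up to 4 genes with the smallest day 1 p among those that passed, from each marker list those that passed, and always Psmb5, Psmb7, Psme1, Ciita and Irf1. The members and lists were chosen with earlier results of these data known, so no p over a list alone is given. Motifs were searched in RefSeq's promoter table for GRCr8. The procedure was tested on simulated data. Alternatives covered the offset, the dim filter, quantile normalization, the intensity trend, array weights, averaged probe sets, the replicate block, the groups in the fit and left-out arrays. Tables used pandas 2.3.3 and numpy 2.4.6 in Python 3.11.15, and figures matplotlib 3.10.9.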

Additional observations from a re-analysis of the deposited data

Results flagged for a closer look

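Of 54 groups of arrays, 9 genes in 6 groups, 2 held an array farther from the others than Dixon's test allows, where chance gives about 1 in 20. Both concerned B2m in air. Day 2 air replicate 5 read 7681 units, the lowest of its group, and its gap to the next array was 0.835 of the group's range on the log2 scale. Replicate 1 of 18 h air read 7463 units, also the lowest of its group, with a gap of 0.778 of the range on the log2 scale. Both arrays also lay nearer to an ozone group than to their own over all tested genes. The highest arrays of these groups read 8417 and 8462 units.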

How the results depend on the processing

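Some alternatives, such as no intensity trend or only the groups compared, leave the difference itself as it was, so they could not change its sign. Of the 27 ozone differences of the 9 genes, 26 kept their sign under every alternative run. The exception was Psmb10 at 18 h, which ranged from -0.208 (without 18 h air replicate 3) to 0.0435 (without 18 h air replicate 5) with 1 array left out, and was 0.0435 without 3 arrays and 0.0932 without 4 arrays (named in the sentences that follow). Among the other genes named, 21 of 162 ozone differences changed sign under some alternative, and none of these passed before or after the change. The counts that pass were less stable. On day 1, 2 of 9 genes passed, and 1 did with averaged probe sets, with quantile normalization or with a replicate block, 5 with array weights, and 4 with only the groups compared in the fit. Without 3 arrays (the replicates 5 of day 2 air, day 2 ozone and 18 h air) it was 4, and without 4 (18 h air replicate 1 as well) 4. On day 2, 82 genes passed, against 22 with no dim filter, 139 with quantile normalization, 2032 with array weights, 6 with the block, 1 with only the groups compared, 1533 without 3 arrays, 1576 without 4 and 18 without the 2 arrays of low nonspecific signal. The 9 genes went from 0 to 1 (quantile), 3 (weights), 5 (without 3) and 5 (without 4). At 18 h, 136 genes passed, against 614 with weights, 1 with only the groups compared, 238 without 3 and 576 without 4, and of the 9 genes 2 passed, against 0 with the block, 0 with only the groups compared and 1 without 3.

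For the change of the ozone difference from day 1 to day 2 (592 genes), weights gave 948, leaving out 3, 4 or 2 arrays 262, 312 and 340, and 1 of the 9 genes passed without 4. From day 2 to 18 h (1 gene), averaged probe sets, the block, only the groups compared and leaving out 2 arrays gave 0, weights 1047, and leaving out 3 or 4 gave 998 and 1132. From day 1 to 18 h, 1 of the 9 passed with quantile normalization and 1 without 4 arrays. In air from day 1 to day 2 (1 gene), weights gave 57, the block 2, only the groups compared 0, and leaving out 3, 4 or 2 arrays 2, 3 and 2. In air from day 2 to 18 h (14 genes), no dim filter gave 8, the 50th percentile 22, averaged probe sets 6, quantile 39, weights 693, the block 5, only the groups compared 0, and leaving out 3 or 4 arrays 331 and 306. The causes of these shifts were not tested.

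Leaving out 1 array at a time gave 3085 to 3496 genes and 1 to 4 of the 9 on day 1, 1 to 977 genes and 0 to 2 on day 2 (977 without air replicate 5, 507 without ozone replicate 5), and 32 to 411 genes and 0 to 2 at 18 h (411 without air replicate 1). For the changes of the ozone difference the ranges were 295 to 892 genes (day 1 to day 2), 0 to 216 (day 2 to 18 h) and 2057 to 2414 with 0 to 1 of the 9 (day 1 to 18 h). In air they were 0 to 5 genes and 0 to 83. With the replicate block, the correlation of same-numbered arrays did not bear out a pairing, and 1 of 16 ozone arrays correlated best with the air array of its own number. Background signal limits what can be read of dim genes such as Tap2, and the few arrays a group limit the rest.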
